A study of Triticum aestivum with 24 samples.

Results

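The subject is the interaction of drought and elevated CO2 in leaves of bread wheat (Triticum aestivum), winter cultivar Alana, grown without added heat. It was read from 12 of the 24 libraries of a series that crossed drought, elevated CO2 and elevated temperature in 8 groups. The 12 are the 3 biological replicates of each of 4 groups, taken by their labels: elevated CO2 with drought (CD; 700 ppm CO2 and a soil water content of 25 ± 5%), elevated CO2 (eC; 700 ppm), drought (D; soil water content of 25 ± 5%) and control (CTR). The RNA was poly-A selected and came from the main tiller (leaves 3 and 4) at growth stage 61, when flowering begins. The labels call the replicates biological and say no more of their origin, so p-values measure the spread between these samples. In whole leaves, fewer cells of a type and less RNA per cell cannot be told apart. The other 12 libraries were grown with temperature up to 31 °C and serve below only to show where genes chosen at ambient temperature stood there.

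Drought closes stomata through abscisic acid, lowers leaf water potential and limits carbon uptake. Elevated CO2 also narrows stomata, but raises the supply of carbon to Rubisco, so that a plant can lose less water for each carbon gained. The 2 treatments therefore act on the same organ in partly opposed ways, and their joint effect on transcripts need not be the sum of the single effects. The comparison asked, gene by gene, whether the effect of drought under elevated CO2 (CD minus eC) differed from the effect of drought at ambient CO2 (D minus CTR). This difference of differences is called the interaction below. It is positive when CD lies above the level that adding the single effects gives, and negative when CD lies below it.

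Values are FPKM, fragment counts scaled to transcript length and library size, as the authors deposited them. The 3 CD columns had a lower overall scale than the other 9. The median-ratio factor, taken over genes against the geometric mean of the libraries, was 0.880 to 0.886 in CD, against 1.06 to 1.07 in eC, 1.03 to 1.04 in D and 1.02 to 1.03 in CTR. Each library was divided by its factor, and all levels below are such rescaled FPKM. Of 105200 genes, 43280 had at least 1 FPKM in at least 3 of the 12 libraries and were tested. Effects are differences of log2(FPKM + 1), which understate the change of low genes. Between replicates the root mean square SD on this scale was 0.230 in CD, 0.137 in eC, 0.180 in D and 0.163 in CTR (n = 3 each). The absolute depth of the libraries is unknown, so no counting interval is given. The files pair the identifiers with no gene names, and 0 of them matched the reference gene table, so genes are given by identifier with no role, and leaf markers could not be checked. The digit and letter after TraesCS name the chromosome and its subgenome. Wheat carries near-identical copies of most genes on its A, B and D subgenomes, and the sources used here do not state how fragments were divided among copies, which makes the level of any single copy uncertain.

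Drought and CO2 were non-additive in 7993 of the 43280 genes (18.5%), 3934 (9.09%) with a positive and 4059 (9.38%) with a negative interaction (limma, Benjamini-Hochberg adjusted p under 0.05, two-sided). The interaction was at least 1 on the log2 scale in 1661 of them (3.84% of the genes tested), 954 positive (2.2%) and 707 negative (1.63%). These 1661 genes, called large below, are the ones whose shape is described. The balance of directions rests on the rescaling. On values as deposited 14389 genes were called, of which 14.0% were positive against 49.2% after rescaling, and the large ones numbered 610 positive and 1457 negative. The median interaction over all genes was -0.21 as deposited and 0.01 rescaled. The CD group and the lower scale coincide, so a true general fall in CD and a difference in how its columns were made cannot be told apart. Of the 1661 large genes, 1614 were called with the same sign as deposited, and 1456 were called with the same sign whichever of the 12 libraries was left out.

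Read through the drought effect, the non-additivity lay mostly in an effect that was present under elevated CO2 and small at ambient CO2. Only the effect under elevated CO2 contains CD, whose columns also had a lower scale and were written to fewer decimals. For this contrast, the treatment and the making of the columns cannot be told apart. Drought changed 12934 genes under elevated CO2 (29.9%), of which 6877 (15.9% of the genes tested) rose and 6057 (14%) fell, and 2113 at ambient CO2 (4.88%), of which 1238 (2.86%) rose and 875 (2.02%) fell. The second count depended on single libraries. It was 897 without drought replicate 2, 1066 without control replicate 1, 1242 without control replicate 2, 1270 without drought replicate 1, 3200 without CD replicate 1 and 795 in a fit to all 24 libraries. With library quality weights, 7903 genes were called under elevated CO2 and 5020 at ambient CO2, so the gap between the counts depends on the weighting. Of the 7993 non-additive genes, 5881 (73.6%) had a called drought effect only under elevated CO2, 725 (9.07%) only at ambient CO2, 410 (5.13%) in both with opposite directions and 74 (0.926%) in both with the same direction. The remaining 903 (11.3%) had neither simple effect called. Among the large genes the median absolute drought effect was 1.08 on the log2 scale under elevated CO2, against 0.32 at ambient CO2. Its absolute size was larger under elevated CO2 in 81.4% of them, and in 64.4% of all genes tested. The interaction can equally be read through the CO2 effect, of which only the one under drought contains CD. In the large genes its median absolute size was 1.21 under drought, against 0.54 without drought. It was larger under drought in 73.8% of them, and in 54.3% of all genes tested.

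Across the 43280 genes the 2 drought effects, which share no library, were only weakly alike. Pearson's r was 0.195 and Spearman's rho 0.0640, over genes, which are not independent replicates. Of the genes called in both, 975 in number, 565 moved the same way and 410 the opposite way. They made up 7.54% of the genes called under elevated CO2 and 46.1% of those called at ambient CO2. Across all genes the CO2 effects were more alike. CO2 changed 21145 genes under drought (48.9%) and 19251 without drought (44.5%), and of the 12553 genes called in both, 94.2% moved the same way (r = 0.677 across genes, rho 0.631).

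**Figure D1:**
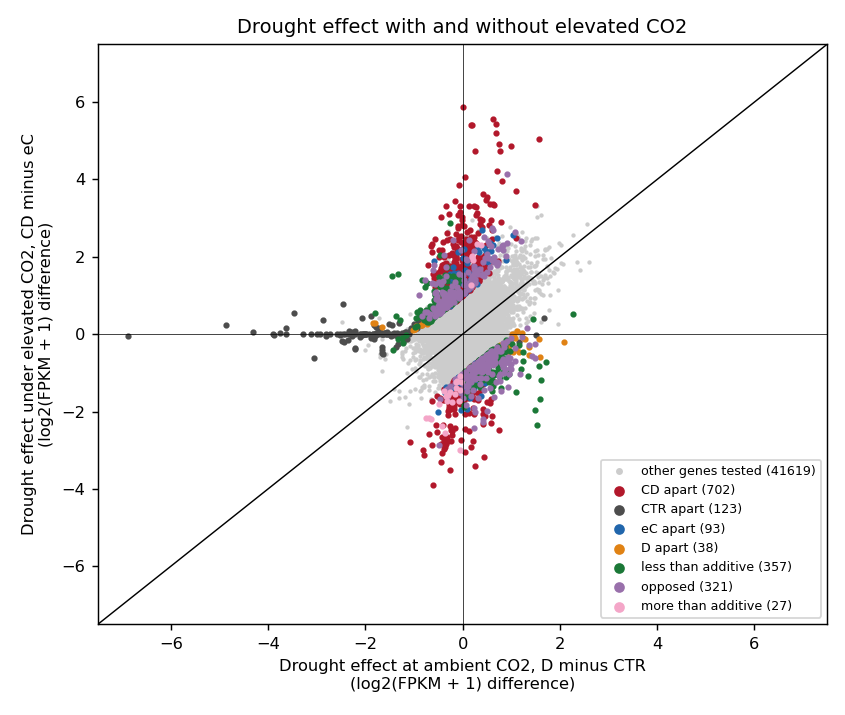
Each point is 1 of 43280 genes. The y axis gives the drought effect under elevated CO2 (CD minus eC) and the x axis the drought effect at ambient CO2 (D minus CTR), both as differences of log2(FPKM + 1); colours mark the shapes of the 1661 large non-additive genes, with their numbers, and the diagonal marks equal effects. The red points of genes with CD apart spread along the vertical axis and the dark points of genes with CTR apart along the horizontal axis.

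Each large gene was classed by the shape of its 4 group means. A group was called apart when the other 3 means spanned at most 0.5 times its distance from their mean. CD stood apart in 702 genes (42.3%), CTR in 123 (7.41%), eC in 93 (5.60%) and D in 38 (2.29%). Of the rest, 357 (21.5%) were less than additive, meaning that both single treatments had means on the same side of control and the combination fell short of their sum. Another 321 (19.3%) were opposed, with single effects of opposite sign in mean, and 27 (1.63%) were more than additive. The classes of the rest go by the signs of these mean differences. A single effect in them can be near 0 and need not be called. The shapes describe the same means that gave the calls and carry no test of their own. A sum on the linear FPKM scale in place of the log2 scale kept the sign of the departure in 1651 of the 1661 genes.

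**Figure D2:**
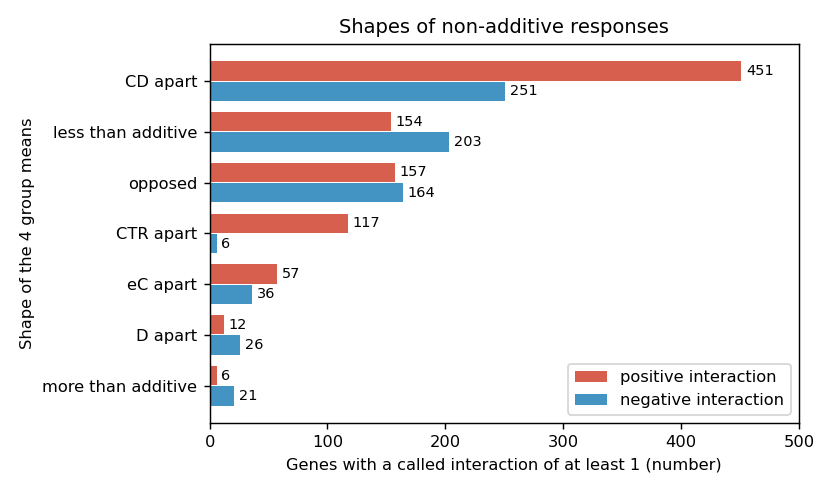
Bars give the number of genes with a called interaction of at least 1 on the log2 scale, by shape and by sign of the interaction. CD apart is the most common shape, with 451 positive and 251 negative genes, and the 123 genes with CTR apart include 6 with a negative interaction.

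Among the large genes the most common shape was a level reached by the combination alone. Over all 7993 called genes the order differed, with 2612 (32.7%) less than additive and 2218 (27.7%) with CD apart. In 451 of the large genes CD was high. Their median level was 10.4 FPKM in CD, against 2.34 in eC, 1.85 in D and 1.80 in CTR, and their median interaction was 1.51 on the log2 scale. In 114 of them the interaction was at least 2, and in 29 at least 3. The median drought effect of these genes was 1.46 under elevated CO2 and -0.06 at ambient CO2. As deposited, 285 genes had this shape.

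TraesCS5D02G042300, on chromosome 5D, had the largest interaction of this shape. It stood at 308, 15.1 and 145 FPKM in the CD libraries, against 0.255, 0.143 and 1.56 in eC, and it was listed at 0 in all D and CTR libraries. The CD libraries lay above all others, which the choice of named genes required, and spread widely among themselves. The interaction came to 5.86 on the log2 scale (SE 1.10; limma, adjusted p = 0.0039).

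TraesCS7D02G428800, on chromosome 7D, had 226, 27.0 and 138 FPKM in CD, 1.32, 1.48 and 1.04 in eC, 1.09, 0.507 and 0.672 in D, and 0.692, 0.711 and 0.272 in CTR. All 9 libraries outside CD were below 2 FPKM. Adding the single effects gives 1.56 FPKM for CD, against a measured mean of 130.3 ± 99.8 FPKM (SD, n = 3), an interaction of 5.23 (SE 0.77; limma, adjusted p = 0.00092). For both genes CD replicate 2 was the lowest of the CD libraries. This held widely: replicate 2 was the CD library nearest to the other groups in 273 of the 451 genes, replicate 1 in 147 and replicate 3 in 31. The median log2 distance of the 451 genes from the other groups was 1.72 in replicate 1, 1.39 in replicate 2 and 1.59 in replicate 3. Without CD replicate 2, 654 genes had CD apart and high, and without CD replicate 3, 387.

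In 251 genes CD was low. Their median level was 3.56 FPKM in CD, against 13.3 in eC, 15.4 in D and 14.7 in CTR, with a median interaction of -1.41. The median drought effect was -1.32 under elevated CO2 and 0.06 at ambient CO2. In 46 of these genes the interaction was -2 or lower, and in 7 it was -3 or lower. The 3 CD libraries were alike here, at median log2 distances of -1.46, -1.45 and -1.44 from the other groups. As deposited, 461 genes had this shape, so that on those values low CD was more common than high CD.

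TraesCS1A02G290200, on chromosome 1A, had 0.813, 0.388 and 0.793 FPKM in CD, against 22.5, 13.0 and 15.3 in eC, 19.5, 19.9 and 17.9 in D, and 13.0, 16.9 and 17.8 in CTR. The eC, D and CTR libraries overlapped, and the CD libraries, all below 1 FPKM, lay far under them. This gave an interaction of -3.66 (SE 0.25; limma, adjusted p = 3.6e-06), where the sum of the single effects gives 19.9 FPKM for CD.

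TraesCS3A02G062200, on chromosome 3A, had 2.22, 4.22 and 3.52 FPKM in CD, 39.4, 33.0 and 39.4 in eC, 87.5, 115 and 124 in D, and 72.7, 71.0 and 96.9 in CTR. The CO2 effect without drought was -1.08 on the log2 scale (limma, adjusted p = 6e-04), while the drought effect at ambient CO2 was 0.44 (adjusted p = 0.21). Under elevated CO2 the drought effect was -3.17 (limma, adjusted p = 6e-07), which left an interaction of -3.61 (SE 0.26; adjusted p = 4.8e-06). All CD libraries lay below all others, which the choice of named genes required, and eC lay below D and CTR.

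**Figure D3:**
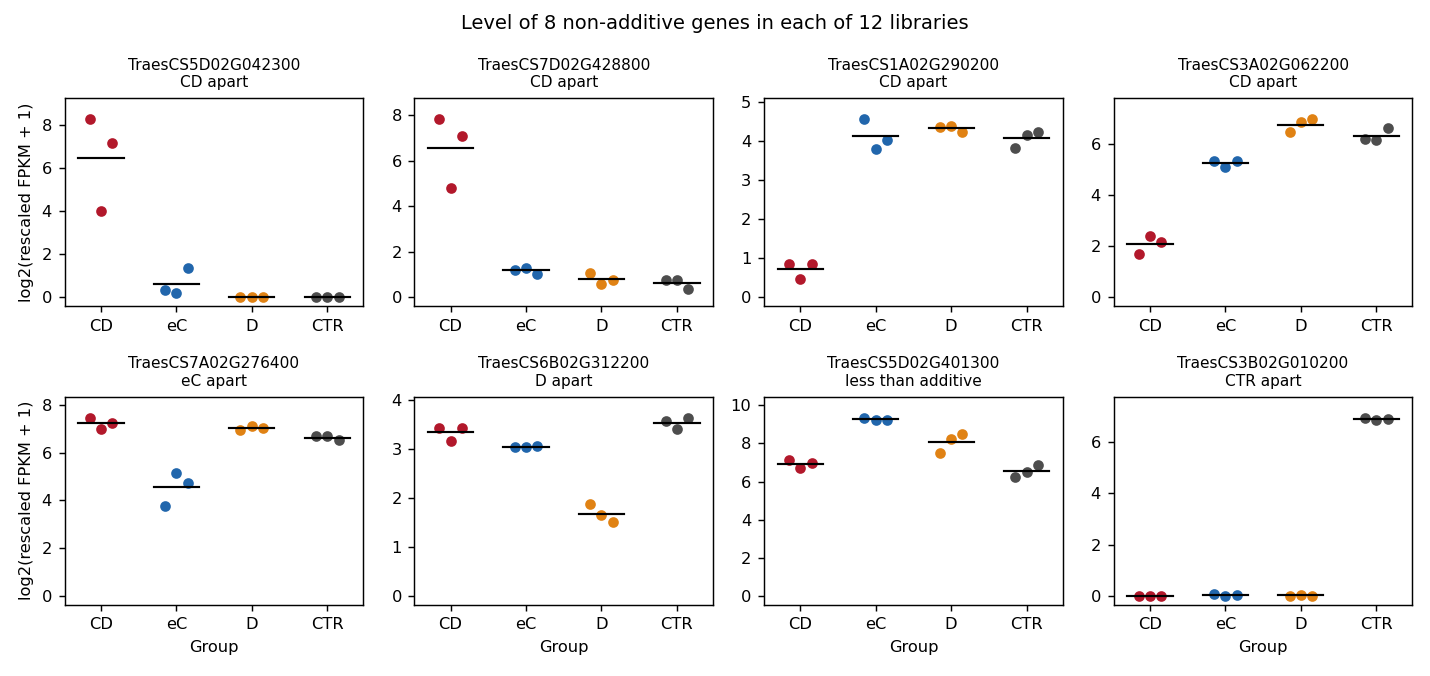
Points give log2(rescaled FPKM + 1) of 8 genes in the 3 libraries of each group, in replicate order, with a line at the group mean; the shape is named above each panel. The CD libraries stand apart in the 4 genes of the upper row, while eC, D and CTR stand apart in 1 gene each of the lower row and TraesCS5D02G401300 is high in eC and D.

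Genes with CD apart were also looked up in the 12 libraries grown with elevated temperature, which had no part in the choice. Each group mean was set against the mean of eC, D and CTR, with all 24 libraries rescaled together. That mean did have a part in the choice. Genes chosen for a low or a high mean there can lie on the same side of it in any other group. The shares over all genes tested, which were not so chosen, do not allow for this. Of the 451 genes high in CD, 110 (24.4%) were at least 1 log2 unit higher under all 3 treatments (CTD), 218 (48.3%) under temperature with drought (TD), 44 (9.76%) under CO2 with temperature (CT) and 17 (3.77%) under temperature (eT). Over all genes tested the shares were 1.68% in CTD, 3.93% in TD, 1.17% in CT and 0.275% in eT. Of the 251 genes low in CD, 67 (26.7%) were at least 1 lower in CTD, 120 (47.8%) in TD, 36 (14.3%) in CT and 50 (19.9%) in eT, against 2.80%, 4.09%, 2.51% and 1.94% of all genes in that order of groups.

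The temperature with drought libraries thus lay nearest to CD. TraesCS5D02G042300 ranged from 73.4 to 259 FPKM there and from 1.32 to 57.4 FPKM in CTD, but reached no more than 0.144 in CT and 0.128 in eT. TraesCS7D02G428800 ranged from 54.9 to 161 FPKM in TD and from 1.55 to 70.9 in CTD, and stayed below 1 FPKM in CT and eT. TraesCS1A02G290200 had a different pattern, lying between 0.962 and 1.87 FPKM in all 12 heated libraries. TD and CD are also the 2 groups whose columns were written to fewer decimals. At most 0.0629% of the values above 0 ran past 9 decimals in TD and 0.0280% in CD, against 100% in each of the other 6 groups. Their factors over all 24 libraries were 0.876 to 0.911 in TD and 0.877 to 0.884 in CD, against 1.02 to 1.07 in the others. What TD and CD share in biology and what they share in processing cannot be told apart from these values.

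**Figure D4:**
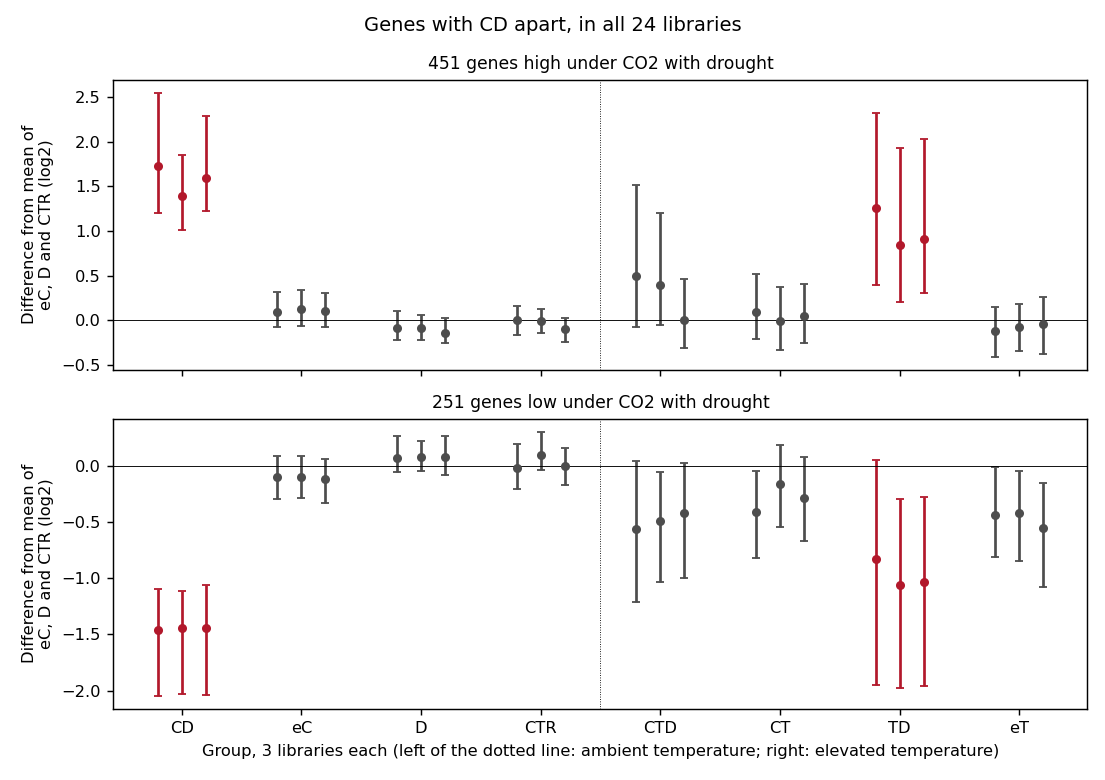
Points give, for each of 24 libraries, the median over the 451 genes high in CD (upper) or the 251 genes low in CD (lower) of the log2 difference from the mean of eC, D and CTR; bars span the middle 50% of the genes. Red marks CD and TD, whose columns share a number format. The TD libraries lie nearest to CD in both panels, and the CTD libraries lie between them and 0 in the upper panel.

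With heat, the same interaction was computed from CTD, CT, TD and eT, which share no library with the ambient groups. It was called in 5704 of the 43280 genes (13.2%), 2206 positive and 3498 negative. Its sign tended to be the opposite of the one at ambient temperature (r = -0.250, rho -0.160 across genes). Of the 451 genes high in CD, 176 were called with heat, 175 of them with a negative interaction. Of the 251 genes low in CD, 73 were called, 53 of them with a positive one. TD enters this contrast with a minus sign and CD enters the ambient one with a plus sign, so a feature that CD and TD share gives opposite signs by construction. Its part in the result was not tested.

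In the less than additive shape, CD fell short of the sum of the single effects. Of the 357 less than additive genes, 203 were higher in mean under each treatment alone and 154 lower in mean under each alone. The 203 had median levels of 6.49 FPKM in CD, 11.6 in eC, 8.33 in D and 5.56 in CTR. In 120 of them CD lay nearer to control than either single treatment did, in 114 it lay on the other side of control from the single treatments, and in 0 it reached, on their side of control, as far as the farther of them. The 154 genes with lower means under each treatment alone had medians of 5.19 FPKM in CD, 2.40 in eC, 3.33 in D and 5.23 in CTR. There CD lay nearer to control than either single treatment in 60 genes and beyond control in 97, and in 2 it reached, on their side, at least as far as the farther of them.

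TraesCS5D02G401300, on chromosome 5D, had the most negative interaction among genes whose highest group averaged 5 FPKM or more. It stood at 139, 102 and 123 FPKM in CD, against 646, 591 and 606 in eC, 178, 298 and 359 in D, and 73.7, 90.1 and 118 in CTR. CD overlapped CTR, while all D and eC libraries lay above both. CO2 alone raised it by 2.72 (limma, adjusted p = 2.9e-06) and drought alone by 1.52 (adjusted p = 0.0029), which would sum to 1767 FPKM, whereas the drought effect under elevated CO2 was -2.34 (limma, adjusted p = 2.6e-05). The departure from the sum was -3.86 (SE 0.32; limma, adjusted p = 1.4e-05). In the heated groups it had mean levels of 513 FPKM in CTD, 367 in TD, 484 in CT and 357 in eT. The libraries ranged from 306 to 683 FPKM in CTD, 337 to 415 in TD, 481 to 490 in CT and 59.0 to 585 in eT.

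In 93 genes the CO2 group stood apart, so that a CO2 effect seen without drought was absent, smaller or of opposite sign in mean under drought. In 57 of them eC was low, with medians of 22.0 FPKM in CD, 6.67 in eC, 23.6 in D and 22.9 in CTR. TraesCS3A02G107200, on chromosome 3A, had 7.33, 4.19 and 5.45 FPKM in CD, 0.595, 0.934 and 0.763 in eC, 9.20, 9.79 and 8.56 in D, and 15.3, 14.0 and 13.5 in CTR. All eC libraries were below 1 FPKM and all others above 4. The CO2 effect was -0.64 under drought (limma, adjusted p = 0.0028) and -3.11 without drought (adjusted p = 3.5e-08), an interaction of 2.47 (SE 0.20; adjusted p = 1.2e-05).

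TraesCS7A02G276400, on chromosome 7A, had 174, 125 and 151 FPKM in CD, 12.5, 34.5 and 25.2 in eC, 123, 139 and 128 in D, and 101, 101 and 91.0 in CTR. The CD libraries overlapped the D libraries and all eC libraries were well below both. Its interaction was 2.28 (SE 0.37; limma, adjusted p = 0.0016), and with heat it was -3.19 (adjusted p = 0.0084), with TD at 396 to 713 FPKM. Of the 57 genes low in eC, 29 were also at least 1 log2 unit lower in CTD and 29 in CT, the other groups with elevated CO2, and 24 were so in TD and 27 in eT, where CO2 was ambient. Over all genes tested the shares were 2.96% in CTD, 3.33% in CT, 3.98% in TD and 2.70% in eT, against 50.9%, 50.9%, 42.1% and 47.4% of the 57 in that order. The mean of CD, D and CTR, from which these distances were taken, had a part in the choice of the 57.

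The other 36 genes were high in eC, with medians of 3.22 FPKM in CD, 9.21 in eC, 3.73 in D and 3.33 in CTR. TraesCS5D02G067100, on chromosome 5D, had 2.51, 1.99 and 2.64 FPKM in CD, 10.7, 12.3 and 12.3 in eC, 3.84, 4.67 and 4.42 in D, and 3.42, 4.02 and 4.64 in CTR. The CO2 effect was -0.65 under drought (limma, adjusted p = 0.00042) and 1.35 without drought (adjusted p = 2.4e-06), giving an interaction of -2.01 (SE 0.16; adjusted p = 8.5e-06). TraesCS1B02G101900, on chromosome 1B, averaged 2.21 ± 0.501 FPKM in CD, 8.70 ± 0.708 in eC, 3.15 ± 0.577 in D and 2.19 ± 0.503 in CTR (SD, n = 3 each), with an interaction of -1.98 (SE 0.20; adjusted p = 7e-05). In both genes every eC library lay above all others, which the choice of named genes required.

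The drought group stood apart in 38 genes, the fewest of the 4 groups. They are not the only genes whose drought effect was absent under elevated CO2. In the 117 genes with CTR apart and high, described below, its median was -1.75 at ambient CO2 and 0 under elevated CO2. The median level of these 117 genes was already 0.0319 FPKM in eC, so a further fall with drought could not be seen there. D was low in 12 of the 38. TraesCS6B02G312200, on chromosome 6B, had 9.77, 7.93 and 9.78 FPKM in CD, 7.19, 7.17 and 7.31 in eC, 2.67, 2.14 and 1.85 in D, and 10.8, 9.53 and 11.4 in CTR. The drought effect was 0.30 under elevated CO2 (limma, adjusted p = 0.052) and -1.85 at ambient CO2 (adjusted p = 6.2e-07), an interaction of 2.15 (SE 0.15; adjusted p = 4e-06). TraesCS3A02G531300, on chromosome 3A, averaged 24.3 ± 3.96 FPKM in CD, 19.6 ± 2.66 in eC, 7.60 ± 0.617 in D and 29.2 ± 4.11 in CTR (SD, n = 3 each), with an interaction of 2.10 (SE 0.19; adjusted p = 3.3e-05). In both genes no D library reached the lowest library of another group, which the choice of named genes required.

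D was high in the other 26. TraesCS2A02G345500, on chromosome 2A, had 0.217, 0 and 0.159 FPKM in CD, 0.301, 1.03 and 0.799 in eC, 3.37, 6.19 and 7.88 in D, and 0.581, 0.973 and 2.30 in CTR (interaction -2.17, SE 0.41; limma, adjusted p = 0.004). With heat it was higher in both drought groups, at 29.4 to 37.8 FPKM in CTD and 29.9 to 33.1 in TD, against 1.16 to 4.85 in CT and 0.685 to 6.44 in eT. TraesCS2B02G454500, on chromosome 2B, had 16.6, 2.88 and 9.86 FPKM in CD, 8.75, 10.1 and 9.62 in eC, 19.6, 37.7 and 47.6 in D, and 4.92, 6.35 and 10.8 in CTR. In both genes every D library lay above the other 9, again by the choice of named genes. The TraesCS2B02G454500 interaction of -2.29 (SE 0.66; limma, adjusted p = 0.032) lost its call on leaving out any 1 of 8 of the 12 libraries, at values from -2.77 to -1.68 over the 12. It too was high in the heated drought groups, at 180.1 to 275 FPKM in CTD and 269.9 to 334 in TD.

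Control stood apart in 123 genes, and in 117 of these it was high. Their median level was 0.0400 FPKM in CD, 0.0319 in eC, 0.0579 in D and 3.25 in CTR. The 3 treated groups were alike and near 0, and the positive interaction is the distance of control from them. Where eC and D are near 0 and control is high, the sum of the single effects lies below 0 FPKM. The interaction is then positive at any level of CD, so its sign and p-value say nothing of the combination. This holds for both genes named next. TraesCS3B02G010200, on chromosome 3B, was listed at 0 in all 3 CD libraries and stood at no more than 0.0421 FPKM in eC and 0.0273 in D, against 122, 115 and 119 in CTR (interaction 6.85, SE 0.09; limma, adjusted p = 1.5e-12). TraesCS1B02G401400, on chromosome 1B, had 0.691, 0.891 and 0.621 FPKM in CD, 0.318, 0.710 and 0.396 in eC, 0.168, 0.153 and 0.417 in D, and 48.4, 47.7 and 18.9 in CTR (interaction 5.11, SE 0.39; adjusted p = 7.6e-06).

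These genes passed the filter through the control libraries. In the heated groups, 3 of the 117 (2.56%) in CTD, 3 in TD, 1 (0.855%) in CT and 2 (1.71%) in eT lay at least 1 log2 unit above the treated ambient groups, against 1.31%, 2.98%, 0.880% and 0.575% of all genes tested in that order. The treated ambient groups also had a part in the choice of these genes. Without the 123 control-apart genes, a fit chosen after seeing the data called 7813 genes, with 835 large positive ones. The 6 genes low in control had smaller interactions. TraesCS6B02G246800, on chromosome 6B, averaged 4.18 ± 0.615 FPKM in CD, 4.29 ± 0.601 in eC, 6.59 ± 1.24 in D and 1.67 ± 0.492 in CTR (SD, n = 3 each; interaction -1.54, SE 0.21; adjusted p = 0.00063). TraesCS1A02G304000, on chromosome 1A, averaged 18.7 ± 9.61 FPKM in CD, 19.7 ± 1.42 in eC, 14.1 ± 1.69 in D and 5.71 ± 0.0657 in CTR (SD, n = 3 each). Its interaction of -1.37 (SE 0.41; limma, adjusted p = 0.037) lost its call on leaving out any 1 of 8 libraries, and over the 12 such fits it ranged from -1.71 to -0.91 (without CD replicate 2).

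The 321 opposed genes were split by the sign of the interaction. In the 164 negative ones CO2 alone lowered 146 in mean, at a median of -0.79, drought alone had a median effect of 0.43, and drought under elevated CO2 a median of -0.89. CD lay outside the range of eC and D in 162 of the 164. Their median levels were 2.67 FPKM in CD, 6.12 in eC, 16.9 in D and 10.9 in CTR. In the 157 positive ones the medians were 19.1 FPKM in CD, 8.07 in eC, 5.92 in D and 6.42 in CTR, and CD lay outside the range of eC and D in 154.

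More than additive genes were few. In the 21 with a negative interaction the median level was 2.10 FPKM in CD, 10.4 in eC, 29.2 in D and 35.8 in CTR, a stepwise order in which each treatment lowered the median and the combination lowered it most. The 6 with a positive interaction had medians of 80.1 FPKM in CD, 13.7 in eC, 2.54 in D and 1.94 in CTR.

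Some large genes followed each other in identifier order. Wheat identifiers of this set ascend along each chromosome, and 25 runs of at least 3 tested genes in a row were large with the same sign, 13 positive and 12 negative, holding 96 genes. Genes that were not tested can lie between them: the 7 genes of the longest run spanned 10 identifier steps, and 3 genes on 3D spanned 35. No number of runs to set beside the 25 was computed. Of the 12 negative runs, 6 were on group 1 chromosomes, 5 on group 3 and 1 on 2B. The positive runs were on groups 2, 3, 6 and 7, with 2, 4, 3 and 4 of them. Genes with CD apart made up 32 of the 44 genes in negative runs (72.7%; 35.5% of all large negative genes) and 22 of the 52 in positive runs (42.3%; 47.3% of all large positive genes).

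The longest positive run held 7 genes on chromosome 3B, from TraesCS3B02G130300 to TraesCS3B02G131300, all with CD apart and high. Their group means were 1.30 to 35.2 FPKM in CD, 0.0196 to 3.41 in eC, 0 to 2.05 in D and 0.0208 to 2.49 in CTR. The interactions ranged from 1.14 to 3.18, with limma adjusted p-values from 1.3e-06 to 0.00026. The highest of them in CD, TraesCS3B02G131000, averaged 35.2 FPKM in CD, 3.41 in eC, 0.605 in D and 0.635 in CTR.

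The longest negative runs held 5 genes each. In the run on chromosome 1B, from TraesCS1B02G449000 to TraesCS1B02G449400, all 5 genes had CD apart and low, with means of 2.53 to 8.30 FPKM in CD, 17.8 to 61.6 in eC, 14.0 to 67.6 in D and 15.9 to 87.5 in CTR. Their interactions spanned -2.56 to -2.28, a narrow range. The run on chromosome 1D, from TraesCS1D02G288400 to TraesCS1D02G288800, was graded instead, with means of 0.814 to 9.28 FPKM in CD, 2.65 to 28.7 in eC, 12.1 to 57.4 in D and 10.6 to 65.1 in CTR. In each of its 5 genes eC lay below both D and CTR and CD lay lower still.

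**Figure D5:**
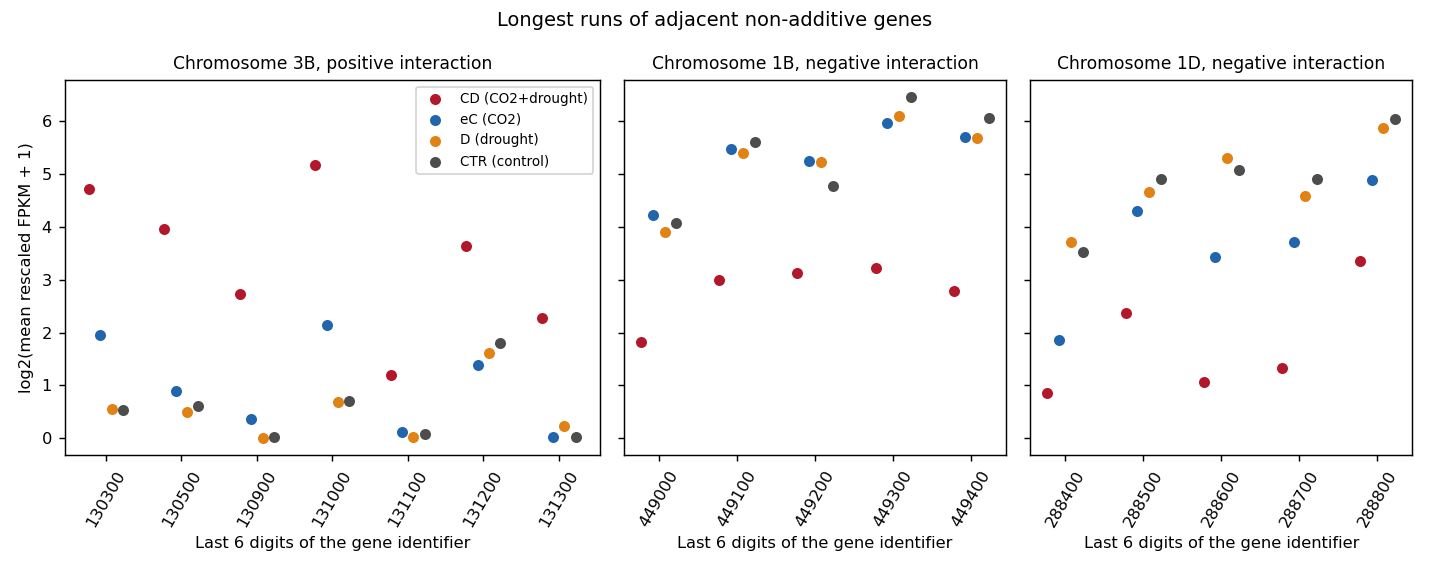
Points give log2(mean rescaled FPKM + 1) of each group for the adjacent genes of the longest positive run (chromosome 3B) and the longest negative runs (chromosomes 1B and 1D), by the last 6 digits of the identifier. CD is the highest group in all 7 genes on 3B and the lowest in all 10 genes on 1B and 1D, and on 1D eC also lies below D and CTR.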

How the data were processed

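The authors deposited 1 table of FPKM, with 105200 genes in rows and the 24 leaf libraries in columns. The tools listed, per the submitters' processing notes, are Trim Galore 0.4.1, HISAT2, Cuffdiff and DESeq2; which step each served is not stated. Neither the genome build nor the annotation is named in the labels, and counts were not analysed here. Values of exactly 0 are reported as listed at 0, since they may be failed estimates. Sample titles gave the groups.

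The 12 ambient libraries were divided by median-ratio factors, on the assumption that the typical gene is alike in all groups. Genes reaching 1 FPKM in 3 or more of them were fitted, on log2(FPKM + 1), by group means in limma 3.58.1 (R 4.3.3) with a trend in the prior variance. Every adjusted p is two-sided and by Benjamini and Hochberg over the 43280 genes of its contrast, and calls were made under 0.05. The fit was run on simulated data with equal noise in all 4 groups of a gene, whereas the real spread was largest in CD. The shape rule was run only on sets of group means written by hand, without noise. These did not include more than additive. The interaction in the heated libraries was added after the data were seen.

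Named genes are at most the 2 most positive and the 2 most negative large genes, for the interaction and for each group apart, among those averaging 5 FPKM or more in their highest group. Where a group is apart, its libraries also had not to overlap the other 9. The members and lists were chosen with earlier results of these data known. Alternatives were unscaled values, upper quartile scaling, a pseudocount of 0.1, no filter, a filter at 5 FPKM, all 24 libraries, library quality weights, a replicate block and leaving out each library.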

Additional observations from a re-analysis of the deposited data

Results flagged for a closer look

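The drought effect differed between elevated and ambient CO2, by the interaction test (limma, Benjamini-Hochberg adjusted p under 0.05), in each gene named above. The genes were named from those already called by this test, so the calls restate the choice and add no support. The values that follow are interactions on the log2(FPKM + 1) scale, elevated minus ambient CO2. With CD apart, they were 5.86 in TraesCS5D02G042300, 5.23 in TraesCS7D02G428800, -3.66 in TraesCS1A02G290200 and -3.61 in TraesCS3A02G062200. With eC apart, they were 2.47 in TraesCS3A02G107200, 2.28 in TraesCS7A02G276400, -2.01 in TraesCS5D02G067100 and -1.98 in TraesCS1B02G101900. With D apart, they were 2.15 in TraesCS6B02G312200, 2.10 in TraesCS3A02G531300, -2.29 in TraesCS2B02G454500 and -2.17 in TraesCS2A02G345500. With CTR apart, they were 6.85 in TraesCS3B02G010200, 5.11 in TraesCS1B02G401400, -1.54 in TraesCS6B02G246800 and -1.37 in TraesCS1A02G304000. The positive values among these were fixed in sign by the near absence of the transcripts in eC and D. The less than additive TraesCS5D02G401300 had -3.86.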

How the results depend on the processing

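No named gene changed the sign of its interaction under any alternative, and of the 339 tested values over 17 genes, 20 lost the call, all in TraesCS2B02G454500 and TraesCS1A02G304000. TraesCS2A02G345500 gave no value under the filter at 5 FPKM, and the linear scale carried no test. As deposited, the interaction was called in 14389 genes (610 large positive, 1457 large negative) and drought under elevated CO2 in 20880, with 16.2% positive against 53.2% rescaled; the CO2 effect under drought had 26.4% positive against 49.5%. CD was then apart and high in 285 genes and low in 461, and eC apart in 156. The scale of the CD columns and the CD treatment cannot be told apart. With a pseudocount of 0.1, 1545 genes were large positive and 1154 large negative. With the filter at 5 FPKM, 600 were large positive and 13868 had a CO2 effect under drought, of 23829 tested. A fit to all 24 libraries called 4791 interactions and 795 drought effects at ambient CO2. Library quality weights, whose estimate stopped before convergence, called 7903 drought effects under elevated CO2 and 5020 at ambient CO2; the cause was not tested. With a span of at most 0.333 times the distance, CD was apart and high in 297 genes and low in 148, eC apart in 55 and D in 16. Over all called genes these were 1289, 929, 793 and 172, with CTR apart in 357 and 2612 less than additive. Leaving out 1 library gave 5598 to 8868 interactions, 835 to 1245 large positive, 620 to 765 large negative, 9122 to 13018 drought effects under elevated CO2, 897 to 3200 at ambient CO2, 18084 to 21172 CO2 effects under drought and 15992 to 20510 without. CD was then apart and high in 387 to 654 genes and low in 230 to 269, CTR apart in 116 to 128, eC in 85 to 139 and D in 27 to 47. The replicate block called 7208 interactions. Same-numbered libraries showed no shared deviation (18 pairs, r from -0.117 to 0.0818). The labels do not say whether the numbers pair the samples, and this check cannot decide it.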

Other observations

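Large non-additive genes were spread over all 21 chromosomes. The share with a large positive interaction ran from 1.38% of the tested genes on 1D to 3.99% on 6B, which had 69 of 1730, against 2.85% on 6A and 2.47% on 6D. The share with a large negative interaction ran from 0.874% on 7B to 2.30% on 1B. By subgenome, large genes made up 3.93% of the tested genes on A, 3.95% on B and 3.64% on D. Genes with CTR apart numbered 51 on A, 56 on B and 16 on D, whereas genes with CD apart numbered 247, 231 and 224. These differences were not tested.

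A few genes were all or none in 1 group of the 4. Of the 43280 genes tested, 12 stood at 5 FPKM or more in all 3 CD libraries and below 1 FPKM in the other 9. The same was met by 18 genes in CTR and 0 in eC and D. Such genes passed the filter only through the group where they are high. The reverse, below 1 FPKM in all 3 libraries and at least 5 FPKM in the other 9, was met by 4 genes in CD, 1 in eC, and 0 in D and CTR.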
